A study of Homo sapiens with 12 samples.

Results

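Cells move membrane and cargo between organelles with a common set of machines: coat proteins that bud vesicles, RAB GTPases that mark membranes, tethers that hold vesicles at their target, SNAREs that fuse them, and a proton pump that acidifies the lysosome at the end of the route. Their genes were taken here by symbol, as every gene of the mRNA table whose name began with RAB, VPS, SNX, ARF, SEC, STX, VAMP, EXOC or LAMP and a digit, with COPA, COPB, COPE, COPG or COPZ, or with TBC1D, ATP6V or TRAPPC. The rule found 102 of the 4988 genes in the table. Of the 13 prefixes, 12 had members, and no gene of the ARF prefix was in the table. There were 20 RAB, 15 ATP6V, 13 TBC1D, 13 VPS, 8 SEC, 8 SNX, 6 COP, 5 TRAPPC, 5 STX, 4 EXOC, 3 VAMP and 2 LAMP genes.

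The samples were xenograft tumours of Hep3B, an established human hepatocellular carcinoma cell line. A control group and a group treated with bufotalin, a steroid of the bufadienolide type found in toad venom, gave 3 total RNA libraries each. The sources used here did not give the host strain, the dose or the time of treatment. Values are FPKM, a level scaled by the depth of the library and the length of the gene, and the mRNA values of a library added up to 102677 to 121337 FPKM. The depth in reads was unknown, so no counting interval was set. The labels do not say that the 3 libraries of a group came from separate animals, so p-values measure no more than the spread among these libraries, which can be technical.

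Proteins made at the endoplasmic reticulum (ER) are carried forward in COPII vesicles and returned in COPI vesicles, while endosomes and lysosomes receive cargo for breakdown and are acidified by the vacuolar ATPase (V-ATPase). Many lysosomal genes carry a short promoter sequence of the E-box type that the MiT/TFE transcription factors bind, and in hepatocytes lysosomes and autophagy supply nutrients in fasting.

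The table held only genes that the authors had selected on these same samples, so a count of changed genes in it is not independent evidence of a change. limma on log2(FPKM + 1) was run on the 4273 genes that averaged 0.5 FPKM or more, and 93.2% of them passed an adjusted p of 0.05. Of the 102 trafficking genes, 93 were tested and 9 lay under that minimum. Of those tested, 44 were higher and 46 lower with bufotalin, and 3 (STX16, STX6 and VAMP7) did not pass. That is 96.8% called. The background in the whole table was 44.3% higher and 48.8% lower, so both shares lay near those of all genes. Changes of at least 2-fold on the fitted scale were found in 13 genes that rose, against a background of 7.14% of all tested genes, and in 22 that fell, against 25.9%. The median log2 fold change of the 93 genes was -0.50, beside 0.13 over all tested genes. No tested trafficking gene had a log2 fold change between -0.25 and 0.25. The share of all tested genes in that interval was not counted, so the empty interval is not read as a trait of these genes. The part of the selection of the table in it was not tested. The median is the value of SNX5, the smallest of the called falls. It lies at the lower edge of a gap between genes that fell and genes that rose, so the classes are described one by one.

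The groups did not overlap in 98 of the 102 genes, beside 92.4% of all genes in the table. The 4 with overlap were RAB4A, STX16, STX6 and VAMP7. Summed over all 102 genes, the level was 2032 ± 121 FPKM in control and 2190 ± 46.7 FPKM with bufotalin (mean ± SD, n = 3 libraries here and below), a 1.08-fold difference of means. The groups overlapped in this sum, while single classes moved much further. Scaling the libraries to equal medians moved the median log2 fold change of all tested genes by 0.31, from 0.13 to 0.45. No tested trafficking gene changed direction under that scaling or under quantile normalization, where the median was 0.04.

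**Figure D1:**
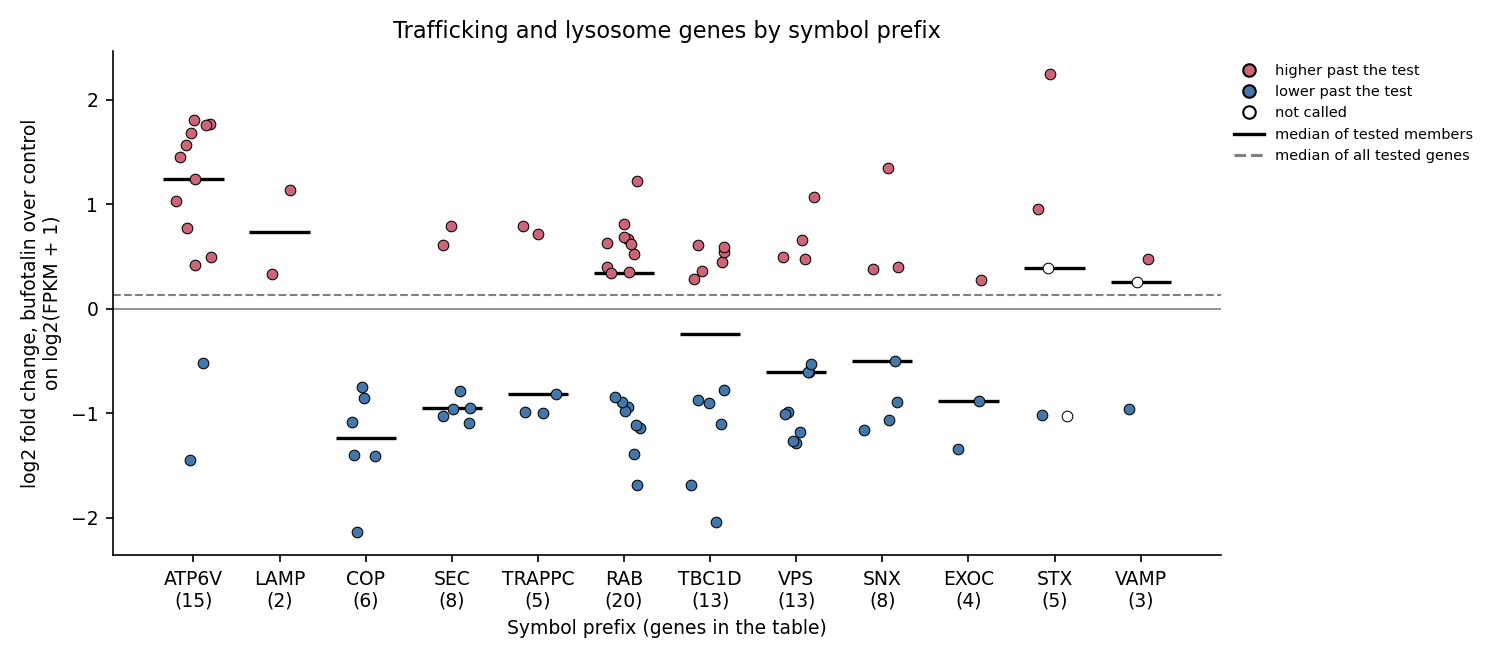
Log2 fold change of bufotalin over control on log2(FPKM + 1) for each of the 93 tested genes, by symbol prefix, with the number of genes in the table in brackets; red points rose and blue points fell past the test, open points were not called, black bars are class medians and the dashed line is the median of all tested genes (0.13). The ATP6V points lie mostly above 1 (median 1.24), all 6 COP points lie below 0 (median -1.24), and RAB and TBC1D points lie on both sides of 0.

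Promoter sequences were taken from RefSeq (GRCh38.p14, 250 bases before to 50 after the first listed start) for the 86 trafficking genes that had one. They are shown because the E-box core CACGTG, the palindromic centre of the sequence bound by MiT/TFE factors, was unevenly spread between the genes that rose and those that fell. It was present in 12 of 35 promoters of genes that rose (34.3%) and in 2 of 41 of genes that fell (4.88%). Among the other called genes of the table it was present in 215 of 1453 that rose (14.8%) and 132 of 1572 that fell (8.4%), and it was in 7.43% of all 27305 promoters. Among ATP6V genes, 2 of 7 promoters of those that rose held it (28.6%), and 1 of the 3 others did (33.3%). Not all of these 3 genes were tested, and so few promoters cannot show a split or its absence. These shares are a description with no test. A match is not a bound site, and it does not single out MiT/TFE factors or any other factor. The capitals below mark the core, with 15 bases on each side of the outermost copies (LAMP1 ends sooner, 10 bases past its start). LAMP1, ATP6V0B, ATP6V0D1, VPS11 and VPS37B rose, and ATP6V0E2 and STX2 are the 2 genes that fell and hold the core.
LAMP1, chr13:113297032-113297248, plus strand: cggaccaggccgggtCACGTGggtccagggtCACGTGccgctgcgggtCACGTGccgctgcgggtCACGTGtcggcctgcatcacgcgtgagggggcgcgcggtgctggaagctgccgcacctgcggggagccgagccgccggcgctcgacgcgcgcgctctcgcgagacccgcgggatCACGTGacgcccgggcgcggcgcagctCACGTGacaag
ATP6V0B, chr1:43974888-43974941, plus strand: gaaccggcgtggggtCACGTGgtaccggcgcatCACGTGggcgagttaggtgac
ATP6V0D1, chr16:67481196-67481231, minus strand: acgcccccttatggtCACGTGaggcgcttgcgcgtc
VPS11, chr11:119067747-119067804, plus strand: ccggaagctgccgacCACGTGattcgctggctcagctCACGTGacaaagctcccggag
VPS37B, chr12:122896143-122896178, minus strand: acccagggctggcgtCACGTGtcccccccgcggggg
ATP6V0E2, chr7:149872881-149872916, plus strand: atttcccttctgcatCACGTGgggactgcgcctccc
STX2, chr12:130839396-130839431, minus strand: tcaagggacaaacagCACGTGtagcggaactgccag

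LAMP1 held 6 copies of the core within 217 bases, and ATP6V0B, VPS11, SNX8 and TBC1D3L held 2 each. The longer palindrome TCACGTGA, which holds the core, was in 3 of the 35 promoters of genes that rose (LAMP1, ATP6V0D1 and VPS11) and in none of the 41 of genes that fell. It was in 43 of 1453 promoters of the other genes that rose (2.96%), in 10 of 1572 of those that fell (0.636%) and in 1.04% of all promoters. The other genes that rose and hold the core were RAB29, RAB4A, SEC11C, SNX8, TBC1D13, TBC1D15 and TBC1D20. STX6, not called, and TBC1D3L, not tested, also held the core, and STX6 held the longer palindrome as well. No COP, EXOC, TRAPPC or VAMP promoter held the core. The median GC content was 68% in the 35 promoters of genes that rose (48.3% to 82.3%) and 64.7% in the 41 of genes that fell (44.7% to 78%), and its part in the motif shares was not tested. Of the 86 genes, 19 had more than 1 listed start. Counting any listed start, 12 of 35 and 3 of 41 held the core. The ER stress element, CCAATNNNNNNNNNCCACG, searched on both strands, was in none of the 86 promoters and in 22 of all 27305 (0.0806%).

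**Figure D2:**
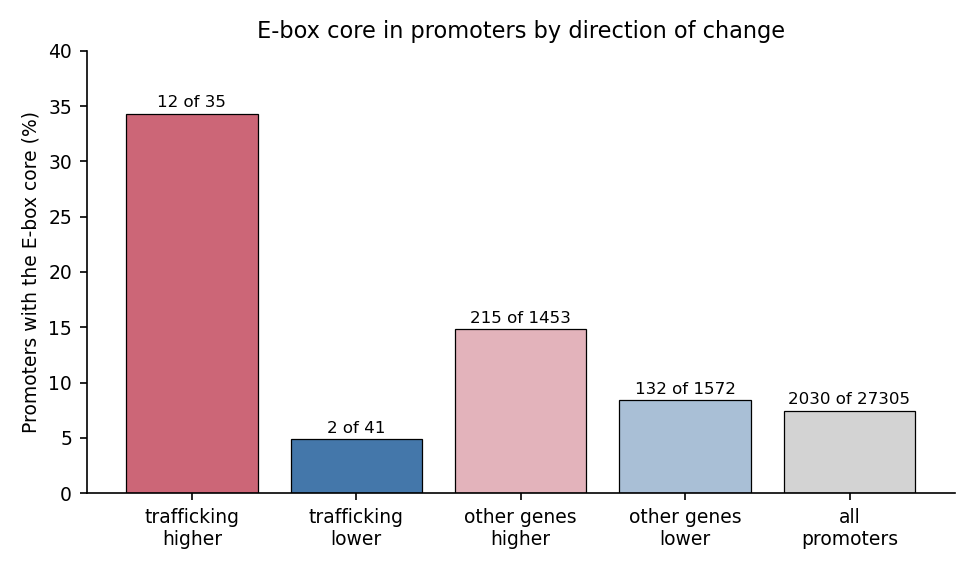
Percent of RefSeq promoters (300 bases) that hold the E-box core on either strand, for trafficking genes that rose or fell past the test, for all other called genes by direction, and for all promoters; counts stand above the bars. The bar for trafficking genes that rose is at 34.3%, and the other bars lie between 4.88% and 14.8%.

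Most V-ATPase genes in the table rose, with 11 of 13 tested members higher and 2 lower, and a median log2 fold change of 1.24. That is 84.6% higher, beside 44.3% of all tested genes. Some subunit genes, ATP6V1A and ATP6V1E1 for example, were not in the selected table, so these counts do not cover the whole pump. The pump has a membrane sector, V0, that carries protons through the bilayer, and a cytosolic sector, V1, that hydrolyses ATP. The V0 genes summed to 152.8, 151.9 and 163.9 FPKM in control libraries 1 to 3 and to 501.5, 497.1 and 466.5 FPKM in the bufotalin libraries, a 3.13-fold difference of means. The V1 genes summed to 51.07, 54.2 and 52.96 FPKM in control and to 106, 110.6 and 95.86 FPKM with bufotalin, a 1.98-fold difference. In both sums, which cover only the subunit genes in the table, every bufotalin library lay above every control library. In bulk tumour RNA, a change in the share of a cell type and a change in RNA per cell cannot be told apart.

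ATP6V0B (chromosome 1, 43974487 to 43978295), a proteolipid of the rotating ring, was the most abundant V-ATPase gene. Its level was 42.5, 34.2 and 64.0 FPKM in control and 174.9, 151.6 and 143.3 FPKM with bufotalin. The highest control library stayed below every bufotalin library by a factor of more than 2 (log2 fold change 1.76, SE 0.21, adjusted p 5.97e-05). ATP6V0C (chromosome 16, 2513952 to 2520218), the other ring proteolipid here, was at 45.6, 48.2 and 31.3 FPKM in control and 118, 119 and 133 FPKM with bufotalin. Its groups did not overlap (1.56, SE 0.16, adjusted p 1.96e-05). ATP6V0D1 (chromosome 16, 67438014 to 67481181), which joins the ring to the central stalk, was at 17.0, 16.3 and 18.7 FPKM in control and 62.0, 65.0 and 48.0 FPKM with bufotalin. Bufotalin replicate 3 was the lowest of its group and still more than 2-fold above control (1.68, SE 0.14, adjusted p 5.18e-06).

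ATP6V0E1 and ATP6V0E2 encode 2 forms of the small e subunit and moved in opposite directions. ATP6V0E1 (chromosome 5, 172983771 to 173035445) was at 27.7, 33.3 and 30.2 FPKM in control and 106, 111.7 and 97.4 FPKM with bufotalin (log2 fold change 1.76, SE 0.11, adjusted p 2.22e-06). ATP6V0E2 (chromosome 7, 149872968 to 149891416) was at 4.79, 3.03 and 4.202 FPKM in control and 0.841, 0.978 and 0.641 FPKM with bufotalin (-1.45, SE 0.15, adjusted p 1.98e-05). The ratio of the first to the second ranged from 5.78 to 11.0 in control and from 114 to 152 with bufotalin, with no library near the other group. ATP6V0E2 shares its locus with ACTR3C, and the fitted scale understates changes of genes as low as these.

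The a subunit, which forms the proton path beside the ring, had 3 genes in the table and all 3 rose. ATP6V0A1 (chromosome 17, 42458844 to 42522611) was at 6.52, 8.94 and 7.46 FPKM in control and 26.02, 33.3 and 28.2 FPKM with bufotalin, the largest V-ATPase rise on the fitted scale (1.81, SE 0.14, adjusted p 4.41e-06). ATP6V0A4, a form best known from kidney acid secretion, was low, at 0.747 to 1.22 FPKM in control and 3.57 to 4.93 FPKM with bufotalin (1.45, SE 0.14). As a ratio of means it rose more than ATP6V0A1, 4.60-fold against 3.82-fold. ATP6V0A2, a form of the Golgi and endosomes, moved less, from 7.11 to 7.54 FPKM to 9.82 to 11.5 FPKM (0.49, SE 0.11, adjusted p 0.00164). The ratio of ATP6V0A1 to ATP6V0A4 was 5.34 to 10.7 in control and 6.43 to 7.28 with bufotalin, so those ranges overlapped.

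In V1, ATP6V1B2, the B subunit that shares the ATP-binding sites, was at 17.9, 20.3 and 25.2 FPKM in control and 55.3, 50.6 and 47.2 FPKM with bufotalin. All bufotalin libraries were above control (1.24, SE 0.14, adjusted p 2.98e-05). ATP6V1C1 encodes a stalk subunit and rose from 7.66 ± 0.59 to 17.4 ± 6.33 FPKM (1.03, SE 0.21), with bufotalin replicate 2 high at 24.6 FPKM beside 13.2 and 14.3 FPKM. Its paralog ATP6V1C2 fell from 0.795 ± 0.0621 to 0.257 ± 0.0955 FPKM (-0.52, SE 0.10), and that call was lost under both other scalings. ATP6V1H, a regulatory subunit, rose from 11.9 ± 1.87 to 20.8 ± 1.90 FPKM (0.77, SE 0.13). ATP6V1D, of the central stalk, was at 13.6, 11.1 and 8.04 FPKM in control and 14.3, 14.7 and 14.9 FPKM with bufotalin (0.42, SE 0.16, adjusted p 0.0333). The ATP6V1D call was lost when any library other than control replicate 1 was left out, with adjusted p values of 0.052 to 0.0993, and its log2 fold change without control replicate 3 was 0.23. Here and in the other classes, members below the minimum were not tested: ATP6V1B1 was at 0.279 to 0.389 FPKM in control and at 0 to 0.144 FPKM with bufotalin, and ATP6V1FNB, which is not a pump subunit, was at most 0.391 FPKM.

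LAMP1 and LAMP2 encode the most abundant glycoproteins of the lysosomal membrane, and both rose. LAMP1 (chromosome 13, 113297239 to 113323672) was at 33.0, 42.9 and 45.1 FPKM in control and 87.9, 89.1 and 90.1 FPKM with bufotalin. The bufotalin libraries were close together and about 2-fold above control (1.14, SE 0.13, adjusted p 3.68e-05). LAMP2 (chromosome X, 120427827 to 120469365) was at 16.5, 15.6 and 16.7 FPKM in control and 19.9, 19.4 and 22.8 FPKM with bufotalin, a smaller rise (0.33, SE 0.11, adjusted p 0.0165). LAMP2 lost its call without bufotalin replicate 3 (log2 fold change 0.26, adjusted p 0.054) and without control replicate 2 (0.30, adjusted p 0.0583).

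**Figure D3:**
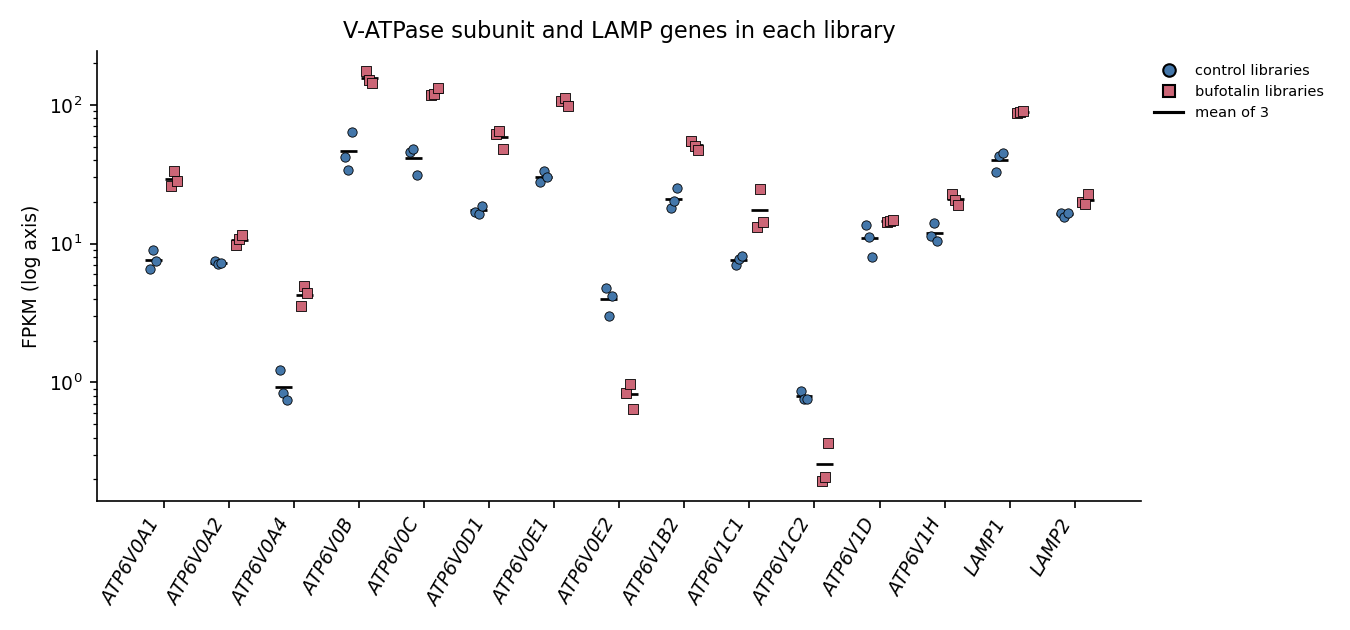
FPKM (log axis) of the 13 tested V-ATPase genes and the 2 LAMP genes in each library, control as blue circles and bufotalin as red squares, with the mean of 3 as a bar. Every gene except ATP6V0E2 and ATP6V1C2 lies higher in the bufotalin libraries, with no overlap between groups.

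Lists of other lysosomal genes, set from textbook knowledge, were read beside these classes. Here and for the later lists, counts cover only the listed genes that were in the selected table. Over all tested genes, 44.3% were higher and 48.8% lower. The table held 18 of 32 listed lysosomal membrane genes. Of the 17 tested, 12 rose and 5 fell (median 0.69). By at least 2-fold on the fitted scale, 5 rose and 5 fell. The summed level of the list went from 332 to 348 FPKM in control to 573 to 585 FPKM with bufotalin. The most abundant genes in that sum were CD63 and LAPTM4B. They rose from 141 ± 16 to 230 ± 32 FPKM and from 60.7 ± 6.5 to 136 ± 33 FPKM. MCOLN1, the lysosomal calcium channel, rose from 4.29 ± 0.23 to 12.4 ± 1.12 FPKM. SPNS1, a lysophospholipid transporter, rose from 12.3 ± 0.93 to 41.3 ± 6.99 FPKM, and CLCN7, the chloride-proton exchanger, rose from 10.05 ± 0.47 to 30.6 ± 5.62 FPKM. Of 57 listed hydrolase and lumenal genes 26 were in the table, and 13 rose, 12 fell and 1 was not called (median 0.41). The protease CTSA rose from 17.5 ± 0.35 to 46.1 ± 6.203 FPKM and the thioesterase PPT1 rose from 41.1 ± 0.43 to 100.2 ± 9.39 FPKM, while the fucosidase FUCA1 fell from 4.24 ± 0.37 to 1.09 ± 0.10 FPKM.

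Of 11 listed genes that sort enzymes to the lysosome 6 were in the table, and 5 rose and 1 fell (median 0.51). M6PR, a mannose 6-phosphate receptor, rose from 34.0 ± 3.7 to 75.7 ± 4.9 FPKM and GNPTG, a subunit of the enzyme that makes its ligand, rose from 6.89 ± 0.65 to 13.7 ± 0.57 FPKM. The endocytic receptor LRP1 fell from 19.0 ± 1.3 to 4.89 ± 0.75 FPKM. The V-ATPase accessory and assembly list (8 of 13 listed genes in the table) was mixed. Of 7 tested, 2 rose, 4 fell and 1 was not called. Its median (-0.71) was opposite in sign to that of the subunits, but its summed level overlapped between groups. That sum was 120 to 129.6 FPKM in control and 126.9 to 132.7 FPKM with bufotalin. ATP6AP1, an assembly factor, rose from 29.5 ± 1.7 to 50.1 ± 1.3 FPKM. DMXL2, a subunit of the complex that reassembles the pump, fell from 17.6 ± 2.1 to 9.16 ± 1.4 FPKM, and TLDC2, a TLDc-domain protein, fell from 6.29 ± 0.86 to 0.817 ± 0.32 FPKM.

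In the list of lysosomal transcription factors and mTORC1 signalling, 10 of 35 genes were in the table. Of the 9 tested, 6 rose and 3 fell (median 0.53). MITF was the only transcription factor among the 10, and it rose from 19.3 ± 1.5 to 27.6 ± 1.6 FPKM (0.49, SE 0.11). FLCN, which acts on the RAGC and RAGD GTPases at the lysosome, rose from 6.76 ± 0.83 to 19.9 ± 1.2 FPKM and RRAGC itself from 14.8 ± 1.3 to 33.0 ± 3.0 FPKM, while NPRL3 of the GATOR1 complex fell from 14.5 ± 1.3 to 5.90 ± 0.52 FPKM. Of 48 listed autophagy genes 14 were in the table, and 11 rose and 3 fell (median 0.39). ATG2A, a lipid transfer protein of the growing autophagosome, rose from 2.51 ± 0.33 to 9.05 ± 0.65 FPKM. The proteases that process LC3 proteins split, as ATG4D rose from 8.27 ± 0.14 to 16.4 ± 2.6 FPKM and ATG4C fell from 6.40 ± 0.23 to 2.77 ± 0.18 FPKM.

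The COPI coat genes in the table fell, all 6 of 6 past the test, with a median log2 fold change of -1.24. Over all tested genes, 48.8% were lower. COPI buds vesicles from the Golgi and returns escaped proteins to the ER. Summed over the 6 genes the level was 564.6, 521.3 and 658.8 FPKM in control and 280.1, 270 and 298 FPKM with bufotalin, 0.486 of the control mean, and the groups were far apart. In control this sum was above that of the V-ATPase subunits (203.9 to 216.9 FPKM), and with bufotalin it was below it (562.3 to 607.8 FPKM). Both sums cover only the subunit genes in the selected table (COPE, for example, was not in it), so they are not levels of whole complexes.

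COPA (chromosome 1, 160288594 to 160343273), the alpha subunit, was the most abundant trafficking gene in control, though not with bufotalin. It was at 140.2, 126.2 and 187.5 FPKM in control and 70.4, 77.4 and 102.4 FPKM with bufotalin. Replicate 3 was the highest of each group, and the groups stayed apart (-0.85, SE 0.18, adjusted p 0.00179). COPB1, the beta subunit, fell from 126 ± 15.5 to 58.85 ± 3.67 FPKM (-1.08, SE 0.12), and COPB2, the beta prime subunit, from 144.7 ± 6.91 to 85.6 ± 5.61 FPKM (-0.75, SE 0.11), the smallest fall of the class. The gamma subunit has 2 forms. COPG1 (chromosome 3, 129249606 to 129277773) was at 130.2, 122.2 and 148.7 FPKM in control and 52.3, 47.4 and 50.4 FPKM with bufotalin (-1.40, SE 0.12, adjusted p 5.84e-06). COPG2 (chromosome 7, 130506238 to 130668748) was at 22.6, 20.4 and 26.5 FPKM in control and 4.52, 4.28 and 4.58 FPKM with bufotalin (-2.14, SE 0.12, adjusted p 1.41e-06). It was the largest fall past the test on the fitted scale. As ratios of means several called genes, among them TBC1D8B (8.93-fold) and COPZ2 (7.65-fold), were further below control than COPG2 (5.20-fold). The ratio of COPG1 to COPG2 went from 5.61 to 5.98 in control to 11.0 to 11.6 with bufotalin. COPG2 shares its locus with MEST and TSGA13. COPZ2, a form of the zeta subunit, was at 2.13 to 3.01 FPKM in control and 0.293 to 0.369 FPKM with bufotalin (-1.41, SE 0.12).

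The SEC genes are named for yeast secretion mutants and cover several functions. Both COPII coat genes in the table fell: SEC23A, of the inner coat, from 49.1, 45.7 and 50.2 FPKM to 24.9, 23.5 and 24.8 FPKM (-0.96, SE 0.10), and SEC24D, a cargo adaptor, from 33.7, 26.2 and 34.1 FPKM to 14.6, 13.9 and 15.9 FPKM (-1.02, SE 0.13). Both were close to 2-fold lower in all bufotalin libraries. SEC22A, a SNARE-like protein of the ER and Golgi, fell from 7.17 ± 0.80 to 3.73 ± 0.14 FPKM (-0.79, SE 0.11). The 2 catalytic subunits of signal peptidase, which cleaves signal sequences in the ER, rose. SEC11A was at 65.2, 71.3 and 74.2 FPKM in control and 112.9, 104.2 and 105.6 FPKM with bufotalin (0.61, SE 0.11, adjusted p 0.00049), and SEC11C rose from 5.72 ± 1.76 to 10.5 ± 2.57 FPKM (0.79, SE 0.21). SEC14L2 and SEC14L4, lipid-binding proteins with no coat function, fell from 1.5002 ± 0.29 to 0.296 ± 0.174 FPKM (-0.95, SE 0.13) and from 1.90 ± 0.28 to 0.361 ± 0.105 FPKM (-1.09, SE 0.11). SEC14L5 was at most 0.0462 FPKM and was not tested.

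TRAPP complexes tether ER-derived vesicles and activate RAB1. TRAPPC3, a core subunit, was at 18.4, 23.0 and 21.6 FPKM in control and 36.6, 41.8 and 33.2 FPKM with bufotalin (0.79, SE 0.13, adjusted p 0.00029). TRAPPC6A, another core subunit, moved the opposite way, from 10.3, 6.66 and 8.64 FPKM to 4.18, 4.01 and 3.09 FPKM (-0.99, SE 0.16, adjusted p 0.000293). TRAPPC11 and TRAPPC13, subunits of the larger complex III, fell from 5.95 ± 0.69 to 2.51 ± 0.34 FPKM (-0.98, SE 0.13) and from 11.6 ± 0.86 to 6.13 ± 0.47 FPKM (-0.82, SE 0.11). TRAPPC2B rose from 5.97 ± 0.46 to 10.4 ± 0.71 FPKM (0.71, SE 0.11), and since it is a retrocopy of TRAPPC2, its reads could belong to either gene.

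**Figure D4:**
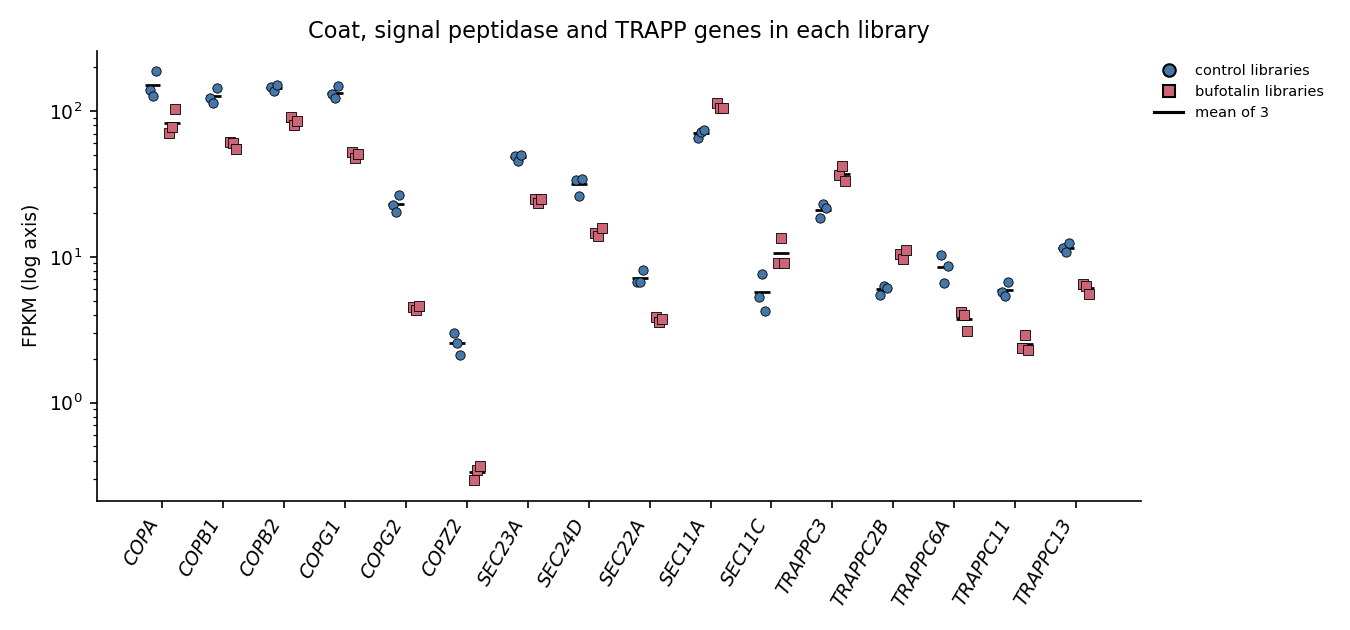
FPKM (log axis) of the 6 COPI, 2 COPII, 1 SEC22, 2 signal peptidase and 5 TRAPP genes in each library, control as blue circles and bufotalin as red squares, with the mean of 3 as a bar. All coat genes lie lower with bufotalin, from COPB2 (log2 fold change -0.75) to COPG2 (-2.14), while SEC11A, SEC11C, TRAPPC3 and TRAPPC2B lie higher.

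Outside the prefixes, 9 of 28 listed Golgi tethers and golgins were in the table, and most fell like the coats. Of the 9 tested, 8 fell and 1 rose (median -0.86). Their sum went from 169 to 185.6 FPKM in control to 97.9 to 105 FPKM with bufotalin. USO1, the p115 tether of ER-to-Golgi vesicles, fell from 35.3 ± 2.0 to 11.6 ± 0.51 FPKM, the golgin GOLGA5 from 18.5 ± 3.3 to 6.63 ± 0.23 FPKM, and COG6 of the conserved oligomeric Golgi complex from 10.8 ± 0.94 to 4.96 ± 0.33 FPKM. Other early secretory genes (8 of 50 listed in the table) went in both directions, with 5 of 8 tested higher, 2 lower and 1 not called (median 0.48). KDELR3, a receptor that returns ER proteins in COPI vesicles, fell from 26.5 ± 3.1 to 4.49 ± 0.62 FPKM. SAR1B, the GTPase that starts the COPII coat, rose from 15.9 ± 0.15 to 23.2 ± 0.85 FPKM, and SRPRB, of the signal recognition particle receptor, from 29.8 ± 4.9 to 47.3 ± 4.4 FPKM.

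RAB GTPases split about evenly. Of 18 RAB-prefixed genes tested, 10 rose and 8 fell (median 0.34), and of the 15 among them that are GTPases, 8 rose and 7 fell. RAB7A, RAB10 and RAB1B, the GTPases with the highest levels in control, were among those that rose. RAB7A (chromosome 3, 128726122 to 128814796), which directs late endosomes to lysosomes, was at 63.9, 59.3 and 51.4 FPKM in control and 92.4, 77.9 and 100.7 FPKM with bufotalin (0.62, SE 0.13, adjusted p 0.00165). RAB32 (chromosome 6, 146543833 to 146554953), of lysosome-related organelles and mitochondria, was at 25.7, 27.4 and 32.6 FPKM in control and 80.8, 67.5 and 56.7 FPKM with bufotalin, the largest RAB rise (1.22, SE 0.15, adjusted p 5.25e-05). In both the groups did not overlap. RAB10 and RAB35, of recycling and surface delivery, rose from 53.2 ± 2.07 to 76.75 ± 3.53 FPKM (0.52, SE 0.10) and from 21.01 ± 0.84 to 33.9 ± 2.62 FPKM (0.66, SE 0.11). RAB1B, which acts between ER and Golgi, rose from 46.2 ± 4.404 to 61.3 ± 3.70 FPKM (0.40, SE 0.11), against the direction of the coats that act there. The calls of RAB1B, RAB7A and RAB10 were lost under quantile normalization, with log2 fold changes of 0.14, 0.31 and 0.22 and adjusted p values of 0.269, 0.0724 and 0.0644. RAB29, a Golgi and lysosome RAB, rose from 10.3 ± 1.13 to 13.4 ± 0.83 FPKM (0.35, SE 0.12), a call lost without control replicate 1 (adjusted p 0.0748) or bufotalin replicate 1 (adjusted p 0.0515).

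The RAB genes that fell acted at several sites. RAB3D (chromosome 19, 11322068 to 11346270), found on secretory granules, was at 4.26, 4.09 and 5.07 FPKM in control and 0.730, 0.665 and 0.681 FPKM with bufotalin, the largest RAB fall on the fitted scale (-1.69, SE 0.11, adjusted p 2.34e-06). RAB3A, the form of synaptic vesicles, was at 1.11 to 1.54 FPKM in control and 0.201 to 0.385 FPKM with bufotalin (-0.85, SE 0.11). The RAB3A call was lost under quantile normalization (-0.28, adjusted p 0.053). RAB6B, a Golgi RAB best known from neurons, fell from 2.38 ± 0.23 to 0.559 ± 0.108 FPKM (-1.12, SE 0.11). RAB13, of cell junctions, fell from 30.6 ± 7.79 to 13.03 ± 1.39 FPKM (-1.15, SE 0.18) and RAB20, of endosomes and phagosomes, from 30.04 ± 0.57 to 14.8 ± 2.15 FPKM (-0.98, SE 0.12). Of 3 RAB-named genes that are no GTPases, the RAB11 effector RAB11FIP4 fell from 1.31 ± 0.06 to 0.202 ± 0.039 FPKM (-0.94, SE 0.09) and the exchange factor RAB3IL1 rose from 6.78 ± 0.83 to 12.7 ± 1.66 FPKM (0.81, SE 0.13). RAB5IF, an ER membrane protein and the most abundant of the prefix, was at 74.3, 82.9 and 91.3 FPKM in control and 106.5, 117.8 and 91.4 FPKM with bufotalin, so that bufotalin replicate 3 barely exceeded control replicate 3 (0.34, SE 0.13, adjusted p 0.0338). The RAB5IF call was lost when replicate 1 or 2 of either group was left out, with adjusted p values from 0.0709 to 0.124. It was also lost with the replicate number as a block (adjusted p 0.0591) and under quantile normalization (log2 fold change 0.078, adjusted p 0.581).

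Several related genes moved apart, which changes the balance of paralogs within each library (pairs picked after their values were seen). RAB4A and RAB4B, of fast recycling from early endosomes, had a ratio of 3.26, 2.94 and 1.74 in control and 24.3, 23.1 and 15.02 with bufotalin. RAB4B fell from 3.65 ± 0.89 to 0.759 ± 0.0933 FPKM (-1.39, SE 0.14), while RAB4A was at 10.1, 9.39 and 8.14 FPKM in control and 20.6, 17.7 and 9.94 FPKM with bufotalin, where replicate 3 lay within the control range (0.69, SE 0.23, adjusted p 0.0198). Without bufotalin replicate 3 RAB4A rose by 0.98, and its call was lost when bufotalin replicate 1, bufotalin replicate 2 or control replicate 3 was left out (adjusted p 0.0637 to 0.069). RAB27A and RAB27B, of the release of lysosome-related organelles and exosomes, exchanged rank: RAB27A fell from 5.67 ± 0.45 to 2.60 ± 0.34 FPKM (-0.89, SE 0.12) and RAB27B rose from 3.86 ± 0.18 to 6.503 ± 0.40 FPKM (0.63, SE 0.11). The RAB27B to RAB27A ratio was 0.610 to 0.742 in control and 2.10 to 3.06 with bufotalin. RAB7B and RAB37 lay below the minimum. RAB7B was at 0.510, 0.208 and 0.204 FPKM in control and is listed at 0 in the 3 bufotalin libraries, and RAB37 was at 0.115 to 0.120 FPKM in control and at most 0.0312 FPKM with bufotalin.

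**Figure D5:**
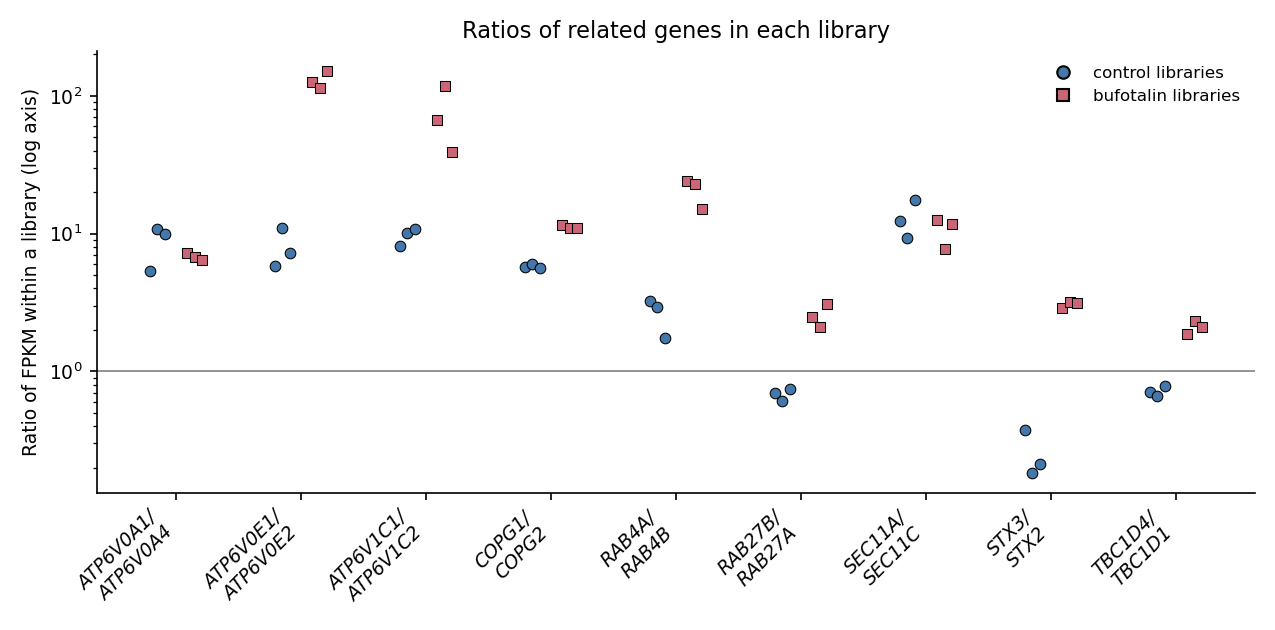
Ratio of the FPKM of 2 related genes within each library (log axis), control as blue circles and bufotalin as red squares, with a line at 1. In 7 of the 9 pairs the ratio is higher in every bufotalin library than in any control library, from COPG1 to COPG2 (5.61 to 5.98, then 11.0 to 11.6) to ATP6V0E1 to ATP6V0E2 (5.78 to 11.0, then 114 to 152), while ATP6V0A1 to ATP6V0A4 and SEC11A to SEC11C overlap. The pairs and their order were picked after their values were seen, so the 7 of 9 follows from that choice.

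TBC1D proteins switch RABs off, and of 12 tested genes 6 rose and 6 fell. Their median of -0.25 lay between the groups of higher and lower genes and became 0.07 with equal medians and 0.04 with quantile normalization. The falls were the larger. TBC1D8B (chromosome X, 106802673 to 106876150) was at 6.01, 5.22 and 5.93 FPKM in control and 0.545, 0.571 and 0.805 FPKM with bufotalin, more than 6-fold below control in every library (-2.04, SE 0.12, adjusted p 1.44e-06). TBC1D5 (chromosome 3, 17157162 to 18444817), which acts on RAB7 with retromer, was at 8.86, 8.57 and 11.0 FPKM in control and 2.58, 1.77 and 2.41 FPKM with bufotalin (-1.69, SE 0.14, adjusted p 6.27e-06). TBC1D15, also of RAB7 and the most abundant of the class, rose from 28.5, 23.7 and 24.0 FPKM to 40.1, 40.1 and 37.2 FPKM (0.61, SE 0.11, adjusted p 0.00068). TBC1D1 and TBC1D4, which act on RAB10 in glucose transporter traffic, exchanged rank: TBC1D1 fell from 24.0 ± 0.98 to 10.7 ± 0.80 FPKM (-1.10, SE 0.11) and TBC1D4 rose from 17.2 ± 0.91 to 22.3 ± 1.33 FPKM (0.36, SE 0.11). The TBC1D4 to TBC1D1 ratio was 0.666 to 0.781 in control and 1.86 to 2.34 with bufotalin.

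Of the other TBC1D genes, TBC1D20, which acts on RAB1, rose from 3.73 ± 0.11 to 5.97 ± 1.17 FPKM (0.54, SE 0.14), TBC1D13, which acts on RAB35, from 13.5 ± 1.45 to 18.7 ± 0.78 FPKM (0.44, SE 0.11) and TBC1D22B, of the Golgi, from 2.99 ± 0.19 to 5.04 ± 0.85 FPKM (0.59, SE 0.13). TBC1D2 rose from 7.74 ± 0.71 to 9.63 ± 0.71 FPKM (0.28, SE 0.11, adjusted p 0.0346), a call lost in 4 of the 6 fits with a library left out (control replicates 2 and 3, bufotalin replicates 1 and 2). TBC1D31 and TBC1D32, of centrosomes and cilia, fell from 17.5 ± 2.26 to 9.75 ± 0.65 FPKM (-0.78, SE 0.12) and from 1.26 ± 0.45 to 0.193 ± 0.079 FPKM (-0.90, SE 0.15). TBC1D10A fell from 4.91 ± 1.42 to 2.17 ± 0.38 FPKM (-0.88, SE 0.17), and that call was lost under quantile normalization (-0.25, adjusted p 0.232). TBC1D3L, one of a family of near-identical copies, was at 0.200 to 0.262 FPKM in control and 0.340 to 0.613 FPKM with bufotalin, and reads may be split between copies. Of 53 listed RAB regulators outside the prefixes, 20 were in the table. Of the 18 tested, 6 rose, 11 fell and 1 was not called (median -0.84). The RAB5 exchange factor RIN1 fell from 8.29 ± 1.3 to 1.54 ± 0.28 FPKM, the RAB-binding RABAC1 from 38.0 ± 0.61 to 10.5 ± 2.1 FPKM, and DENND3, an exchange factor for RAB12, from 16.5 ± 3.1 to 3.29 ± 0.77 FPKM.

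VPS genes are named for yeast vacuolar sorting mutants and belong to separate complexes, which differed in direction: of 12 tested, 4 rose and 8 fell (median -0.60). The 4 that rose were VPS37B and VPS37C of ESCRT-I and VPS11 and VPS18 of the core shared by the CORVET and HOPS tethers. VPS37B (chromosome 12, 122865330 to 122896127), which helps load cargo into multivesicular bodies, was at 9.80, 9.29 and 9.83 FPKM in control and 22.4, 21.05 and 20.6 FPKM with bufotalin, with little spread in either group (1.07, SE 0.10, adjusted p 1.25e-05). VPS37C rose from 6.84 ± 0.24 to 10.04 ± 0.95 FPKM (0.49, SE 0.11). VPS11 rose from 5.85 ± 0.22 to 8.57 ± 0.89 FPKM (0.48, SE 0.11) and VPS18 from 4.83 ± 0.88 to 8.12 ± 0.54 FPKM (0.66, SE 0.13). The HOPS subunits VPS39 and VPS41, which bind RAB7 or membranes at the lysosome, went the other way. VPS39 (chromosome 15, 42158701 to 42208316) was at 12.7, 9.23 and 12.3 FPKM in control and 3.49, 4.81 and 3.93 FPKM with bufotalin, the largest VPS fall on the fitted scale (-1.28, SE 0.15, adjusted p 3.76e-05). VPS41 fell from 7.46 ± 0.59 to 4.91 ± 1.04 FPKM (-0.53, SE 0.14), and its call was lost under both other scalings (-0.143 and -0.216).

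The tethers GARP and EARP receive endosome-derived vesicles, and the 2 of their subunits in the table, VPS52 (of both) and VPS54 (of GARP), fell. VPS52 was at 11.6, 11.0 and 13.1 FPKM in control and 3.91, 4.78 and 4.41 FPKM with bufotalin (-1.27, SE 0.12, adjusted p 1.04e-05), and VPS54 fell from 14.2 ± 1.54 to 5.69 ± 0.35 FPKM (-1.18, SE 0.12). The 3 VPS13 genes, which encode long proteins that pass lipids between membranes at contact sites, fell as well. VPS13A, the most abundant VPS gene, was at 45.4, 35.2 and 46.9 FPKM in control and 23.9, 28.0 and 30.8 FPKM with bufotalin (-0.60, SE 0.14), and its call was lost with equal medians (-0.29, adjusted p 0.0727). VPS13C fell from 12.5 ± 1.54 to 5.81 ± 0.47 FPKM (-0.99, SE 0.12) and VPS13D from 13.03 ± 0.66 to 6.23 ± 2.49 FPKM (-1.01, SE 0.21). VPS35L, of the retriever complex, fell from 1.13 ± 0.49 to 0.381 ± 0.159 FPKM (-0.61, SE 0.17), a call lost under both other scalings. VPS37D was below the minimum, at 0.163 to 0.342 FPKM in control and 0 to 0.0369 FPKM with bufotalin. Of 21 listed ESCRT genes outside the prefix 7 were in the table, and 3 rose and 4 fell (median -0.70). MVB12B of ESCRT-I fell from 3.05 ± 0.16 to 0.616 ± 0.11 FPKM, and CHMP3 and CHMP6 of ESCRT-III fell from 15.6 ± 2.0 to 5.01 ± 1.3 FPKM and from 1.12 ± 0.085 to 0.312 ± 0.13 FPKM.

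Sorting nexins bind endosomal lipids and shape or sort cargo, and 3 of 7 tested rose and 4 fell (median -0.50). SNX8 (chromosome 7, 2251770 to 2354318), of endosome-to-Golgi transport, was at 4.87, 4.71 and 5.09 FPKM in control and 13.6, 15.4 and 13.1 FPKM with bufotalin (1.35, SE 0.11, adjusted p 5.06e-06). All bufotalin libraries were more than 2-fold above control. SNX9, which works with dynamin at the surface, rose from 18.0 ± 0.46 to 23.7 ± 2.17 FPKM (0.38, SE 0.11). SNX30 rose from 5.30 ± 0.87 to 7.25 ± 0.26 FPKM (0.40, SE 0.13), a call lost without control replicate 2 (adjusted p 0.0595). SNX17, which recycles integrins and LDL receptor family members and was the most abundant of the class in control, was at 38.7, 44.0 and 55.4 FPKM in control and 26.6, 20.7 and 17.3 FPKM with bufotalin (-1.07, SE 0.18, adjusted p 0.000374). SNX10 had the largest fall of the tested nexins, from 16.8 ± 1.79 to 6.95 ± 0.72 FPKM (-1.16, SE 0.12), and SNX7 fell from 32.8 ± 1.798 to 17.2 ± 1.40 FPKM (-0.89, SE 0.11). SNX5, of the coat that carries cargo out of endosomes, fell from 38.4 ± 0.97 to 26.8 ± 2.34 FPKM (-0.50, SE 0.11), a call lost with equal medians (-0.19, adjusted p 0.108). SNX18 was not tested, at 0.422 to 0.516 FPKM in control and 0.0806 to 0.096 FPKM with bufotalin.

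Of 26 listed genes that partner with retromer, retriever, WASH or HOPS 5 were in the table, and 2 rose and 3 fell (median -1.21). VIPAS39, which pairs with a VPS33 protein, fell from 8.84 ± 0.40 to 2.15 ± 0.18 FPKM, WASHC3 of the WASH complex from 6.998 ± 0.75 to 2.30 ± 0.41 FPKM, and COMMD1 from 10.6 ± 0.50 to 4.05 ± 0.74 FPKM. Clathrin and adaptor genes (14 of 45 listed in the table) went in both directions, with 7 of 13 tested higher, 5 lower and 1 not called (median 0.40). CLTCL1, the less common clathrin heavy chain, fell from 28.2 ± 4.5 to 9.50 ± 0.77 FPKM and the AP-2 subunit AP2A1 from 34.4 ± 0.11 to 17.9 ± 0.97 FPKM, while AP5Z1 of the late endosomal AP-5 complex rose from 3.21 ± 0.42 to 9.63 ± 1.4 FPKM. Among ARF regulators and ARF-like genes (15 of 48 listed in the table) 7 of 13 tested rose, 5 fell and 1 was not called (median 0.31). ARL2, an ARF-like GTPase of tubulin folding, fell from 11.7 ± 1.8 to 3.74 ± 0.28 FPKM, and the ARF regulators ADAP1 and IQSEC2 fell from 1.31 ± 0.13 to 0.175 ± 0.014 FPKM and from 7.38 ± 0.69 to 1.83 ± 0.62 FPKM.

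The exocyst tethers secretory vesicles to the plasma membrane. EXOC4 was at 21.2, 27.1 and 30.5 FPKM in control and 9.23, 9.02 and 10.7 FPKM with bufotalin (-1.34, SE 0.15, adjusted p 2.54e-05), and EXOC2 fell from 14.2 ± 1.07 to 7.23 ± 0.38 FPKM (-0.88, SE 0.11). Both were lower in every bufotalin library. EXOC8 was at 9.07, 8.04 and 10.1 FPKM in control and 11.0, 11.4 and 11.1 FPKM with bufotalin, the smallest rise of the called genes (0.28, SE 0.11, adjusted p 0.0379). The EXOC8 call was lost when any library other than control replicate 3 was left out (adjusted p 0.0628 to 0.156) and with the replicate number as a block (adjusted p 0.0527). EXOC3L4 was not tested, at 0.499 to 0.586 FPKM in control and 0.102 to 0.232 FPKM with bufotalin.

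Syntaxins are the target-membrane SNAREs. STX3 (chromosome 11, 59713456 to 59805882), of the apical plasma membrane, had the largest rise of the tested trafficking genes. It was at 6.37, 2.47 and 3.58 FPKM in control and 22.3, 20.6 and 24.0 FPKM with bufotalin, with control replicate 1 the highest of its group and still more than 3-fold below (2.25, SE 0.24, adjusted p 4.80e-05). STX2, another plasma membrane syntaxin, moved the opposite way, from 17.1, 13.5 and 16.8 FPKM to 7.75, 6.47 and 7.69 FPKM (-1.01, SE 0.13, adjusted p 5.93e-05). The STX3 to STX2 ratio was 0.183 to 0.374 in control and 2.87 to 3.18 with bufotalin, so the more abundant of the pair changed. STX11, best known from cytotoxic lymphocytes, rose from 2.80 ± 0.24 to 6.33 ± 0.14 FPKM (0.95, SE 0.11).

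The 2 syntaxins of the trans-Golgi network did not pass the test. STX16 was at 6.30, 24.9 and 25.8 FPKM in control and 6.54, 10.9 and 5.65 FPKM with bufotalin (-1.03, SE 0.60, adjusted p 0.15). Control replicate 1 of STX16 lay within the bufotalin range, and without it the log2 fold change was -1.65 (adjusted p 0.000389). With the replicate number as a block its adjusted p was 0.0472. STX6 was at 7.06, 5.31 and 5.30 FPKM in control and 10.3, 10.6 and 4.52 FPKM with bufotalin (0.39, SE 0.28, adjusted p 0.21), and without bufotalin replicate 3 it was 0.74 (adjusted p 0.00179). Under quantile normalization and with equal medians STX6 had adjusted p values of 0.0273 and 0.0439.

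Among the vesicle SNAREs, VAMP2, of regulated exocytosis, rose from 7.43 ± 1.33 to 10.7 ± 1.40 FPKM (0.48, SE 0.14, adjusted p 0.0109). VAMP4, which partners with STX6 and STX16, fell from 5.11, 3.89 and 6.14 FPKM to 2.09, 2.24 and 1.91 FPKM (-0.96, SE 0.15, adjusted p 0.000212), and that call was lost under quantile normalization (-0.34, adjusted p 0.0663). VAMP7, of lysosomal fusion, was at 16.2, 14.4 and 20.2 FPKM in control and 27.4, 19.4 and 15.3 FPKM with bufotalin, and did not pass (0.25, SE 0.21, adjusted p 0.257). With equal medians VAMP7 had an adjusted p of 0.0256. Of 26 other SNARE and fusion genes listed 11 were in the table, and 4 rose, 4 fell and 3 were not called (median 0.20). STXBP6, a syntaxin-binding protein, rose from 0.315 ± 0.071 to 2.19 ± 0.25 FPKM. SNAP25, a plasma membrane SNARE, fell from 2.23 ± 0.32 to 0.520 ± 0.078 FPKM, and STXBP2, the partner of STX11 and STX3, fell from 26.8 ± 3.1 to 15.4 ± 0.32 FPKM.

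A separate table of lncRNA-class transcripts, where 73.3% of 465 tested transcripts passed limma on log2(FPKM + 0.1), held 5 transcripts of genes with these prefixes, and all 5 passed. ATP6V0B-206 was listed at 0 in the 3 control libraries and at 0.971, 1.504 and 0.469 FPKM with bufotalin, the same direction as its gene. VPS53-218 was listed at 0 in control and at 0.231, 0.409 and 0.277 FPKM with bufotalin. The other 3 were listed at 0 in every bufotalin library. VPS39-207 was at 2.33, 1.24 and 1.90 FPKM in control, TBC1D5-228 at 0.325, 0.806 and 0.647 FPKM, and RAB10-204 at 0.213, 0.549 and 1.07 FPKM. VPS39 and TBC1D5 mRNA fell as well, whereas RAB10 mRNA rose. VPS53 was not among the genes of the mRNA table.

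Markers of other cells were read in the same libraries. The values are for human genes, and the sources used here did not state whether host reads were removed. A marker level can therefore come from the tumour cells or from host reads. Of 14 fibroblast markers 8 were in the table, and all 7 tested fell, with a summed level of 84.3 to 88.7 FPKM in control and 23.9 to 29.8 FPKM with bufotalin. Of 8 endothelial markers 2 were in the table: EGFL7 fell from 32.6 ± 0.84 to 8.45 ± 1.3 FPKM and CDH5 rose from 0.0657 ± 0.051 to 0.943 ± 0.26 FPKM. Of 10 leukocyte markers 3 were in the table, at a sum of 3.18 to 3.53 FPKM in control and 4.61 to 6.82 FPKM with bufotalin, and they differed: CSF1R rose from 3.31 ± 0.15 to 4.99 ± 1.06 FPKM, CD14 (not tested) was at 0 to 0.0758 FPKM in control and 0.522 to 0.728 FPKM with bufotalin, and ITGAM was listed at 0 in every bufotalin library. HBB stood out in control replicate 3, at 13.4 FPKM. Of 4 muscle markers 1 was in the table: DES fell from 2.01 ± 0.51 to 0.0646 ± 0.034 FPKM. Of 21 hepatocyte and liver tumour markers 2 were in the table: KRT8 rose from 362 ± 97 to 524 ± 107 FPKM, and TF was listed at 0 in every control library. The part of host cells or of cell composition in the trafficking genes was not tested. In addition, 25 of the 102 genes overlap another protein-coding gene in the RefSeq annotation, among them ATP6V0E2, COPG2, RAB3D, SNX8, STX3 and TBC1D5, and the sources used here did not state whether the counting used strand.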

How the data were processed

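Total RNA of 3 control and 3 bufotalin Hep3B xenograft samples was analysed from FPKM values per gene (mRNA) and per transcript (lncRNA) that the authors deposited, for features they had selected on these samples. The submitters' processing notes name CASAVA 1.8, fastp, HISAT2 2.0.5, featureCounts 1.5.0-p3, DESeq2 1.20.0 and GRCh38. Which tool made which values, the rule of selection, strandedness and depth are not stated in those sources. Among FPKM values under 0.1, at most 9 ratios of a library pair were equal to 3 decimals, so whole reads could not be recovered. Small RNA libraries were not used here.

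limma 3.58.1 (R 4.3.3; trended, robust eBayes, two-sided, Benjamini-Hochberg over all genes tested, threshold 0.05) was fitted on log2(FPKM + 1) of the genes averaging 0.5 FPKM or more, and on log2(FPKM + 0.1) of lncRNA transcripts averaging 0.1 FPKM or more. Fold changes are on these scales, which understate changes of low genes, and the model was tested on simulated data. Sums and ratios use FPKM. All 102 genes matched the gene reference by Ensembl identifier with the same symbol. Python 3.11.15, pandas 2.3.3, numpy 2.4.6 and matplotlib 3.10.9 were also used.

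Any trafficking gene could be named. By rule these were the largest rise and fall and the most abundant member of each prefix (by mean over 6 libraries), the 10 largest rises and falls among genes averaging 1 FPKM or more, members not called, and up to 3 genes past the test by smallest p from each of 14 pathway lists. Outside that rule, CD63, LAPTM4B and MITF were named for their level or role. The members and lists were chosen with earlier results of these data known, and markers were named after their values were seen. Alternatives changed the pseudocount, the minimum, the scaling, the variance model, the libraries used or the replicate block.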

Additional observations from a re-analysis of the deposited data

How the results depend on the processing

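Of the 90 called trafficking genes, 68 were tested and kept their direction and call in all 14 alternative settings, 3 more kept them in every setting that tested them, 19 lost the call in at least 1, and none of the 93 tested genes reversed. The counts of 44 higher and 46 lower stayed between 38 and 46 and between 40 and 52. The median log2 fold change of tested members, -0.50, lies at the edge of a gap between falling and rising genes and moved easily. It was -0.19 with equal medians, -0.029 with quantile normalization and -0.31 without a minimum. With a minimum mean of 1 FPKM it was 0.28, reversed because 6 low genes that had fallen were no longer tested. Leaving out 1 library gave -0.51 to -0.43. With the replicate block, 42 rose and 47 fell, EXOC8 and RAB5IF lost their calls and STX16 gained one. Libraries with the same number did not deviate together (correlations -0.017, 0.026 and -0.052), so the numbers are not read as pairs. ATP6V kept 11 higher genes and COP 6 lower genes under both other scalings. Depth is unknown, so values near 0 cannot be given a floor.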
